A study of Caenorhabditis elegans with 4 samples.

Results

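The furrow collagens are the products of dpy-2, dpy-3, dpy-7, dpy-8, dpy-9 and dpy-10, a set of cuticle collagens of C. elegans. Their genes were taken by symbol from the annotation of the array's probe sets, by a rule that uses no measured value. A probe set, the group of short probes that together give 1 reading for a transcript, names 5 of the 6 genes alone, and dpy-2 has 2 such probe sets, so that 6 probe sets stand for 5 genes among the 17118 genes and 22548 probe sets compared. No probe set of the annotation used here names dpy-10.

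The cuticle is an extracellular matrix made mostly of collagens, which the epidermis (hypodermis) secretes anew before each moult. The furrow collagens depend on each other for assembly into the circumferential furrows that lie between the raised annuli of the surface, and loss of any of them removes the furrows and leaves a short, stout (dumpy) body. In larvae and young adults, loss of the furrows is also known to switch on genes for osmolytes, epidermal antimicrobial peptides and SKN-1-dependent detoxification, which is why those genes are described here beside the collagens.

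Total RNA of whole N2 worms, the wild-type strain, harvested on day 8 of adulthood, was hybridised to Affymetrix arrays, 2 of worms given DMSO, the solvent, and 2 of worms given rifampicin (RIF), an antibiotic that the study tested for its effect on lifespan. Each array holds the RNA of a population of animals and is labelled as a biological replicate. All 4 populations were grown to young adults on OP50 bacteria and then kept in liquid medium on heat-killed OP50 carrying the L4440 vector, with carbenicillin, amphotericin B and 0.6 mM FuDr (which blocks DNA synthesis and so keeps the worms from having young), with new food on day 5. A tissue field of the labels names an RNAi in place of the drug (a control RNAi for DMSO and idr-1 RNAi for RIF). The groups follow the titles, the source names and the design text. Worms moult for the last time on entering adulthood, so that no cuticle was being replaced at the time of harvest. In whole-worm RNA, fewer cells of a type and less RNA per cell cannot be told apart.

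Values are on the log2 scale, and a difference is always RIF minus DMSO. A gene is said to have risen or fallen where it changed by 2-fold or more with an unadjusted limma p under 0.05. This is called the study's threshold here, since the study gives the same limits of fold and p. The study analysed its arrays in GeneSpring GX and does not name limma, so the counts below are not its own. Across all probe sets, 346 fell (1.53%) and 257 rose (1.14%), the median difference was 0.03, and 8 passed an adjusted p of 0.05 (Benjamini-Hochberg). The median of the arrays lay between 1.82 and 1.90, and pairs of arrays correlated at 0.961 to 0.981. The 8 foreign-transcript controls, which match no worm gene, lay between 0.44 and 1.62, and a value in this range cannot be told from no transcript. The 5′ probe sets of the control transcripts (actin, Gapdh, catalase and ubiquitin) differed from the 3′ ones by a median of -1.68 on DMSO replicate 1, -3.19 on DMSO replicate 2, -2.39 on RIF replicate 1 and -2.37 on RIF replicate 2, so that the widest gap was on DMSO replicate 2.

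All 5 furrow collagen genes read lower on both RIF arrays than on both DMSO arrays, with differences from -0.37 to -0.95 and a median of -0.38, and none of them passed the study's threshold. The absence of overlap held for 5 of the 6 probe sets, whereas it held for 15.7% of all probe sets and for 21.4% of the 12249 probe sets with a mean level above the foreign controls. At an unadjusted p under 0.05 in limma, dpy-3 and dpy-7 were lower (2 of 6 probe sets, against 4.35% of all probe sets), and with a 1.5-fold limit the same 2 passed, against 3.41% of all probe sets. The methods' test, an ordinary unpaired test per probe set, gave 1 of 6 at that p, against 2.79% of all probe sets. That 1 was dpy-2 by probe set 184162_at (p 0.0250), whereas dpy-3 and dpy-7 had p-values of 0.133 and 0.147, and 0 passed the study's threshold, against 0.577% of all probe sets. The smallest adjusted p of a furrow probe set was 0.563 (limma, Benjamini-Hochberg), so that no member can be called on its own among all probe sets. The readings themselves were low, and dpy-7 on both RIF arrays and 1 of the dpy-2 probe sets on 3 of the 4 arrays, with the other on RIF replicate 1, lay within the range of the foreign controls.

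**Figure D1:**
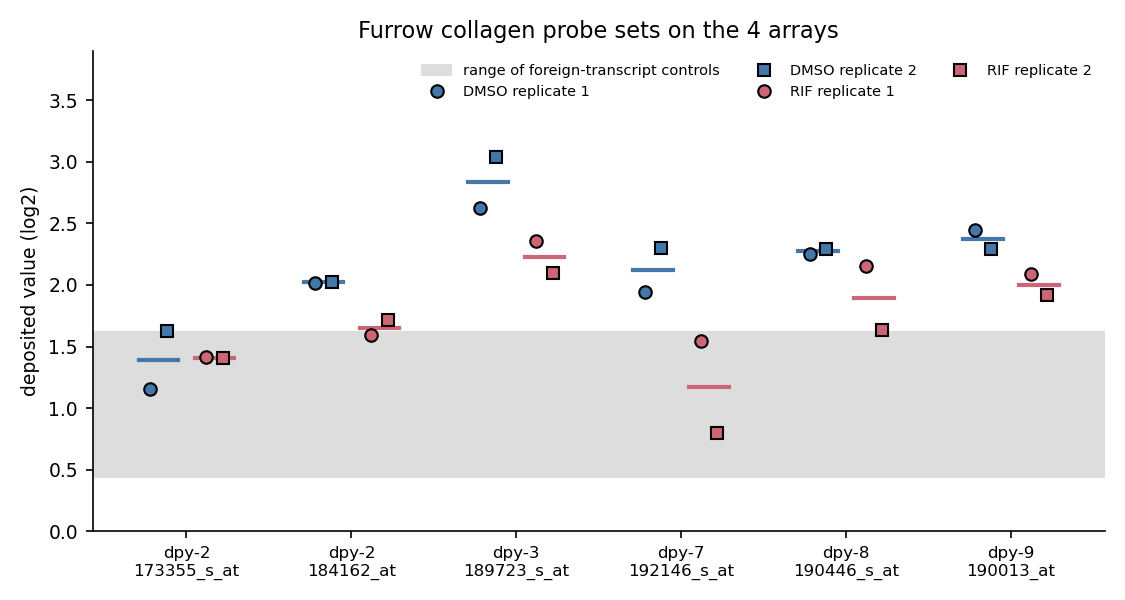
Log2 value (vertical axis) of each furrow collagen probe set (horizontal axis) on the 4 arrays, with circles for replicate 1, squares for replicate 2, bars for group means and a grey band for the range of the foreign-transcript controls (0.44 to 1.62). In 5 of the 6 probe sets both RIF points lie below both DMSO points, and the dpy-7 points on RIF lie within the grey band.

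dpy-7 encodes a furrow collagen much used as a marker of the epidermis, through its promoter and through antibodies that outline the furrows. It read 1.95 and 2.30 with DMSO (mean 2.12 ± 0.25 SD, n = 2) and 1.54 and 0.80 with RIF (1.17 ± 0.53). The groups were 0.40 apart at their nearest arrays, and both RIF values lay within the range of the foreign controls, so that the lower level has only a bound. The DMSO mean of dpy-7 was 1.42-fold above the highest foreign control, a figure that makes no allowance for the spread of the arrays. The measured difference was -0.95 (SE 0.32, 95% interval -1.82 to -0.08), or 1.93-fold lower, with an unadjusted limma p of 0.0388 and an adjusted p of 0.563. This is the largest difference among the members, and it lay just short of the 2-fold limit. It passed the threshold with each of the 3 other scalings (-1.01 after quantile normalization, -1.01 with each array centred on its median and -1.11 with each centred on its ribosomal protein probe sets) and without RIF replicate 1 (-1.32), and was -0.58 without RIF replicate 2.

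dpy-3, another furrow collagen gene of the X chromosome, read 2.62 and 3.04 with DMSO (2.83 ± 0.29) and 2.36 and 2.09 with RIF (2.23 ± 0.19). All 4 values lay above the foreign controls, and the nearest arrays of the groups were 0.26 apart. The difference was -0.61 (SE 0.22, 95% interval -1.21 to -0.00338), or 1.52-fold lower, with an unadjusted limma p of 0.0492 and an adjusted p of 0.588. Without DMSO replicate 2, the array on which dpy-3 was highest, the difference was -0.40.

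The 3 other members had smaller differences of nearly the same size. dpy-2 read 2.02 and 2.03 with DMSO and 1.59 and 1.71 with RIF by probe set 184162_at. RIF replicate 1 lay within the range of the foreign controls here, and the DMSO values were the closest pair among the members. The difference of -0.37 (SE 0.14, 95% interval -0.76 to 0.02) had an adjusted limma p of 0.607. The other dpy-2 probe set, 173355_s_at, read 1.16 and 1.63 with DMSO and 1.42 and 1.40 with RIF, and its groups overlapped (difference 0.02, SE 0.21, 95% interval -0.57 to 0.60). Of its 4 values, 1, on DMSO replicate 2, exceeded the foreign controls, and its sign turned with each of the other scalings (-0.041 to -0.14). The 2 probe sets of dpy-2 therefore disagree, and their mean difference was -0.18.

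dpy-9, the member on chromosome IV, read 2.45 and 2.29 with DMSO (2.37 ± 0.11) and 2.09 and 1.92 with RIF (2.003 ± 0.12). All 4 values lay above the foreign controls and the groups were 0.20 apart. The difference was -0.37 (SE 0.16, 95% interval -0.80 to 0.07), with an adjusted limma p of 0.642. dpy-8 read 2.25 and 2.29 with DMSO (2.27 ± 0.03) and 2.15 and 1.64 with RIF (1.90 ± 0.37), so that RIF replicate 1 came within 0.10 of the DMSO arrays. Its difference of -0.38 (SE 0.23, 95% interval -0.999 to 0.25, adjusted limma p 0.709) shrank to -0.12 without RIF replicate 2 and widened to -0.64 without RIF replicate 1.

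For dpy-10, a furrow collagen gene of chromosome II, like dpy-2, that is a common target for marking edited animals, no level is given. The gene T14B4.19 overlaps dpy-10 in the RefSeq annotation, and its 2 probe sets were not counted as dpy-10, since the annotation assigns them to T14B4.19 alone. Probe set 188200_at read 2.89 and 2.96 with DMSO and 2.31 and 2.01 with RIF (difference -0.77, SE 0.17, unadjusted limma p 0.0107, adjusted p 0.489). Probe set 175025_at read 2.42 and 4.12 with DMSO and 2.33 and 2.78 with RIF (difference -0.72, SE 0.63), and its groups overlapped. Which transcript these probes read was not tested. The probe sets of dpy-3, dpy-7 and dpy-8 and the second one of dpy-2 carry the ending for probes shared between transcripts.

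**Figure D2:**
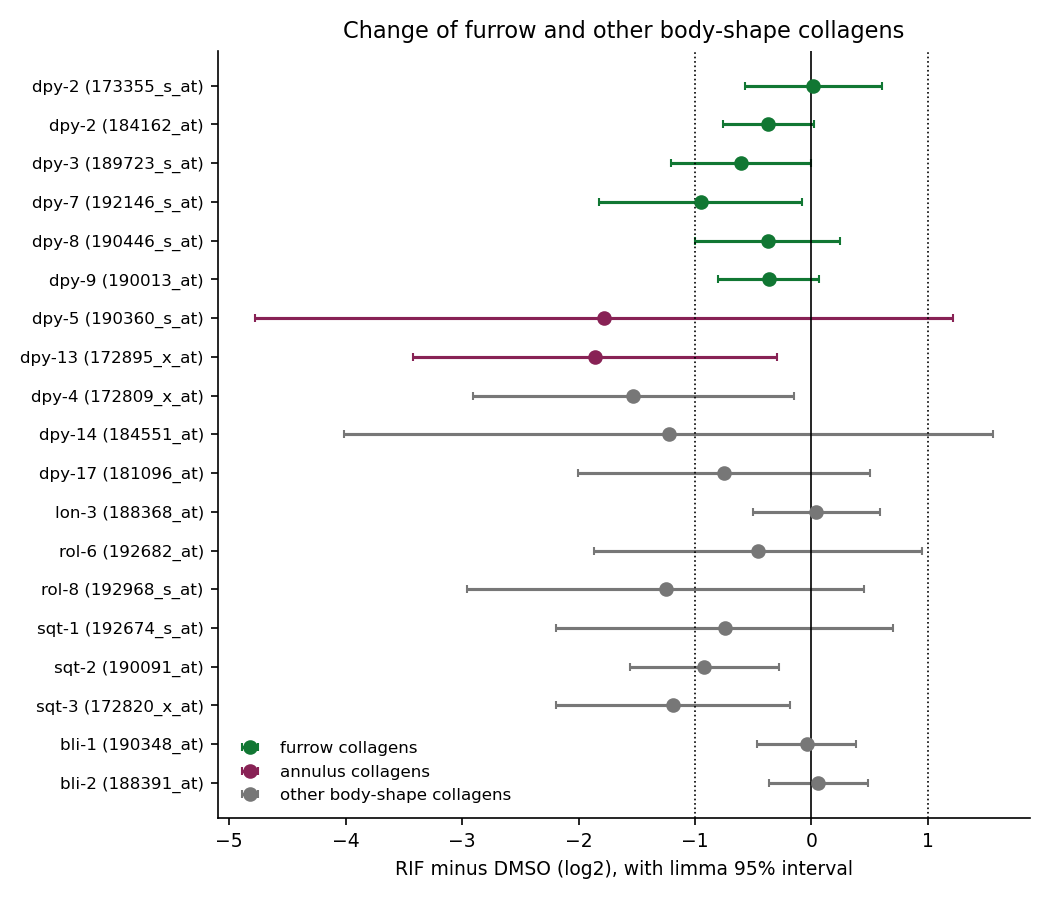
RIF minus DMSO on the log2 scale (horizontal axis) with limma's 95% interval for the 6 furrow collagen probe sets and for 1 probe set each of the annulus collagens and of the other body-shape collagens, with dotted lines at a 2-fold change. The furrow collagen estimates span 0.02 to -0.95, and the widest of their intervals is that of dpy-7 (-1.82 to -0.08). The estimates of dpy-5 and dpy-13 lie at -1.78 and -1.86 with wider intervals. The furrow collagen readings were low, so that their intervals and those of dpy-13 belong to different levels.

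Within the groups, the members differed in how they were spread over the arrays. Averaged over the 5 genes after each was centred on its own mean, the profile was 0.20 and 0.33 with DMSO and -0.11 and -0.43 with RIF. DMSO replicate 2 was the highest array for 4 of the 5 genes, the exception being dpy-9, and RIF replicate 2 was the lowest for 4 of the 5, the exception being dpy-2. Over all 17118 genes DMSO replicate 2 was the highest array for 26.8% and RIF replicate 2 the lowest for 19.7%. The distance between the RIF arrays (replicate 2 minus replicate 1) was -0.74 for dpy-7, -0.52 for dpy-8, -0.27 for dpy-3, -0.17 for dpy-9 and 0.12 for dpy-2. The members' own differences between treatments thus exceeded the distance between the RIF arrays for dpy-7, dpy-3, dpy-9 and dpy-2 but not for dpy-8. The widest gap between 5′ and 3′ control probe sets fell on the same array, DMSO replicate 2, on which 4 members were highest, and its part in the result was not tested. Without that array all 5 genes had negative differences, with a median of -0.40. The DMSO array then left had the narrowest gap of the arrays (-1.68, against -2.39 and -2.37 on RIF). Leaving an array out is therefore no test of the part of this gap.

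**Figure D3:**
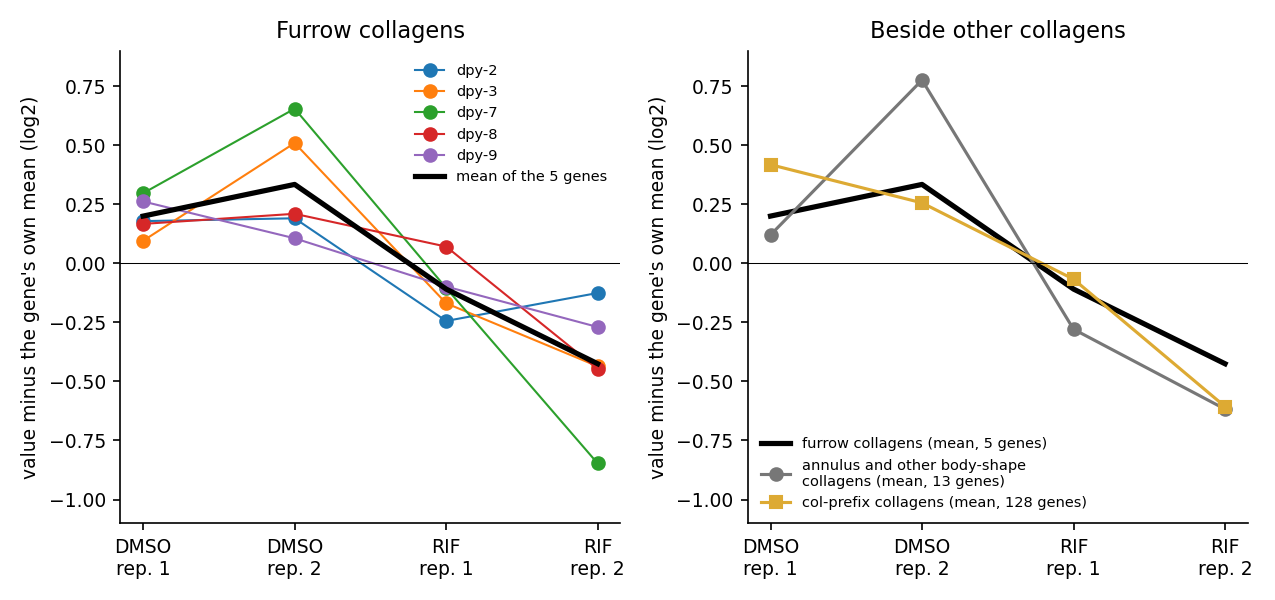
Log2 value minus the gene's own mean over the 4 arrays (vertical axis) on each array (horizontal axis), for the 5 furrow collagen genes (left) and for their mean beside the means of 13 annulus and other body-shape collagens and 128 col-prefix collagens (right). All 5 furrow lines are positive on both DMSO arrays, and their mean goes from 0.33 on DMSO replicate 2 to -0.43 on RIF replicate 2.

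Genes outside the collagens had nearly the same profile as the mean of the 5 members. The 5 nearest of 9426 genes with a mean above the foreign controls, by root mean square difference of the centred values over the 4 arrays, were bir-1 (0.0177), hpo-42 (0.0301), T09B4.8 (0.0319), pup-3 (0.0364) and E01B7.2 (0.0381). By the same measure the members themselves lay further from their mean, from 0.106 (dpy-3) to 0.269 (dpy-7). bir-1, which encodes a survivin-like protein of dividing chromosomes, read 7.28 and 7.44 with DMSO and 6.96 and 6.64 with RIF. With 4 arrays many genes can share a profile, and the likeness is given as a description only.

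The annuli between the furrows are built of other collagens, among them DPY-5 and DPY-13. dpy-13 fell, from 9.81 and 9.14 with DMSO to 8.34 and 6.90 with RIF, a difference of -1.86 (SE 0.57, adjusted limma p 0.538). The call of dpy-13 was lost when RIF replicate 2 (-1.14) or either DMSO array (-1.52 and -2.19) was left out. dpy-5 read 1.40 and 4.37 with DMSO and 1.56 and 0.65 with RIF, so that its difference of -1.78 (SE 1.09) rested on DMSO replicate 2 and was -0.30 without it. On the 3 other arrays dpy-5 lay within the range of the foreign controls. Whether the annulus and furrow collagens differ was not tested.

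Of 11 other body-shape collagens measured, of 12 listed, 9 had a mean above the foreign controls. Of the 11, 2 fell, none rose, 4 had both RIF arrays below both DMSO arrays and the median difference was -0.75. dpy-4 read 7.89 and 7.92 with DMSO and 7.07 and 5.69 with RIF (-1.53, SE 0.50). sqt-3, which encodes a collagen needed from the embryo on, read 8.15 and 8.09 with DMSO and 7.42 and 6.45 with RIF (-1.19, SE 0.36). Its second probe set read 4.26 and 6.16 with DMSO and 4.11 and 3.91 with RIF. That difference of -1.1997 (SE 0.68) did not pass the threshold and rested on DMSO replicate 2. The calls of dpy-4 and sqt-3 were lost when RIF replicate 2 or either DMSO array was left out. The differences were then -0.84 to -1.54 for dpy-4 and -0.70 to -1.22 for sqt-3. rol-6, whose altered form makes worms roll, read 2.31 and 3.35 with DMSO and 2.85 and 1.89 with RIF (-0.46, SE 0.51), its groups overlapped, and the difference was 0.07 when DMSO replicate 2 was left out. The list's median was -1.16 without DMSO replicate 1 and -0.30 without DMSO replicate 2. DMSO replicate 2 was the highest array for 8 of the 13 annulus and other body-shape collagens.

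The 128 genes with the col prefix, most of them further cuticle collagens, had a median difference of -0.30 and a range of -3.77 to 0.48. Of these genes, 91 had a mean above the foreign controls and 37 a mean within their range. The median is therefore not that of detected genes alone. All 5 furrow collagen genes had a mean over the arrays above the controls, dpy-7 only through its DMSO arrays (mean 2.12, against 1.17 with RIF). Of the 128, 21 fell, none rose, and 62 (48.4%) had both RIF arrays below both DMSO arrays. Most of the probe sets that fell carry the ending for probes shared between transcripts, as do those of dpy-13, dpy-4 and sqt-3 that fell. Whether each of them reads a single collagen was not tested. The furrow collagen differences lay inside the range of the col-prefix differences, and 34 col-prefix genes differed by as much as dpy-7 or more. The largest falls were those of col-19 (-3.77, SE 0.83, adjusted limma p 0.489), an adult-specific collagen, col-20 (-3.56), col-140 (-3.40) and col-159 (-3.23). col-19 read 8.10 and 6.31 with DMSO and 4.192 and 2.67 with RIF, and its call was lost without RIF replicate 2 (-3.01). RIF replicate 2 was the lowest array for 91 of the 128 genes (71.1%). The number that fell was 11 without DMSO replicate 1 and 6 without RIF replicate 2.

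**Figure D4:**
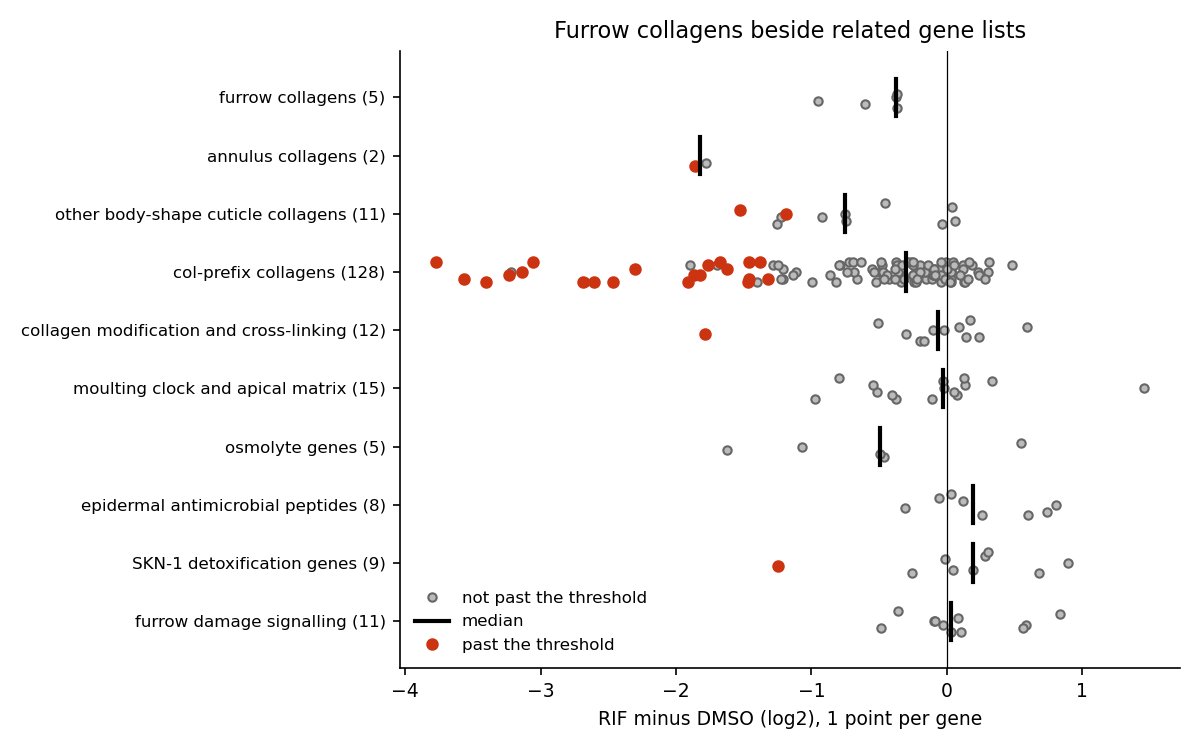
RIF minus DMSO on the log2 scale (horizontal axis), 1 point per gene and a bar at the median of each list (vertical axis, with the number of genes measured), with filled red points for genes past the study's threshold. The 5 furrow collagen points lie between -0.37 and -0.95 around a median of -0.38, inside the spread of the 128 col-prefix genes, whose median is -0.30. That median includes 37 genes with a mean within the range of the foreign controls.

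Collagens are folded, trimmed and cross-linked by dedicated enzymes. Of 12 such genes, 9 had a mean above the foreign controls. Of the 12, 1 fell and none rose, 7 had negative differences, 3 (25%) had both RIF arrays below both DMSO arrays and the median difference was -0.06. The gene that fell was phy-2, which encodes a prolyl 4-hydroxylase subunit that stabilises the collagen triple helix. It read 5.73 and 4.41 with DMSO and 3.21 and 3.37 with RIF (-1.78, SE 0.48), and its call was lost without either RIF array (-1.70 and -1.86). Of 15 genes of the moulting clock and the apical matrix, none passed the threshold. Of the differences 9 were negative and 6 positive, with a median of -0.03, and 2 genes (13.3%) were lower on both RIF arrays. Of these 15, 9 had a mean above the foreign controls. nhr-23, a nuclear receptor that drives collagen genes before each moult, read 2.72 and 3.44 with DMSO and differed by -0.54 (SE 0.50), which was 0.04 without RIF replicate 1.

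The genes known to respond to missing furrows are described by list, with 11 genes of the signalling to them. The signalling genes were not listed as responders. Of the 33 measured over the lists for osmolytes, antimicrobial peptides, detoxification and signalling, 1 fell and none rose. Over all probe sets, 1.53% fell and 1.14% rose. The pooled median difference was 0.05. It joins lists with medians from -0.49 to 0.19, so that it does not describe the responders. Whether the response was switched on was not tested. Of 5 osmolyte genes, 2 had both RIF arrays below both DMSO arrays and none passed the threshold, with a median of -0.49. The mean level of the 5 was 5.03 and 3.52 with DMSO and 3.82 and 3.48 with RIF, so that DMSO replicate 1 stood apart from the other arrays. gpdh-1, which makes the glycerol precursor, differed by -0.46 (SE 0.53). This ranged from -1.098 when DMSO replicate 2 was left out to 0.17 when DMSO replicate 1 was. Of 8 epidermal antimicrobial peptide genes measured, of 9 listed, none passed the threshold and none was without overlap, with a median of 0.19. Their mean level was 5.16 and 7.05 with DMSO and 5.92 and 6.84 with RIF, so that the direction turned on the DMSO array used, and 2 of them passed the threshold as higher without DMSO replicate 2. nlp-29, the usual reporter of this response, differed by -0.06 (SE 0.59, 95% interval -1.68 to 1.57), and by -0.83 without DMSO replicate 1 and 0.71 without DMSO replicate 2.

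Of 9 SKN-1-dependent detoxification genes, 1 fell, none rose and the median was 0.19. gst-10, a glutathione S-transferase gene, fell from 1.74 and 2.93 with DMSO to 0.96 and 1.23 with RIF. Both RIF values lay within the range of the foreign controls. The DMSO mean of gst-10 was 1.65-fold above the highest of them, with no allowance for spread. Its measured difference was -1.24 (SE 0.45), a call lost without DMSO replicate 2 (-0.65) or without either RIF array (-1.11 and -1.38). gst-4, the transferase gene most used as a SKN-1 reporter, differed by 0.30 (SE 1.22), and this ranged from -1.26 without RIF replicate 1 to 1.86 without RIF replicate 2. Of 11 signalling genes measured, of 12 listed, 8 had a mean above the foreign controls, none passed the threshold, and the median was 0.03. Among them skn-1, the transcription factor of the detoxification response, differed by -0.36 (SE 0.35) and elt-3, a GATA factor of the epidermis, by 0.03 (SE 0.47). Both signs turned with 1 array left out, to 0.10 for skn-1 without RIF replicate 1 and to -0.48 for elt-3 without RIF replicate 1.

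Markers of the epidermis, the tissue that makes the furrow collagens, were detected. All 10 had a mean above the foreign controls, 1 of them (col-19) fell and none rose, and 3 had both RIF arrays below both DMSO arrays. Their mean level was 4.70 and 4.34 with DMSO and 4.02 and 3.96 with RIF, and the median difference was -0.21. Of 7 body wall muscle markers, 4 fell, and their mean level was 5.16 and 5.35 with DMSO and 4.33 and 3.82 with RIF. The markers that fell were unc-27 (-2.28), unc-15 (-1.93), unc-54 (-1.87) and myo-3 (measured difference -1.198). Both RIF values of myo-3 lay within the range of the foreign controls. Its DMSO mean was 1.81-fold above the highest of them, with no allowance for spread. The call of unc-54 was lost without RIF replicate 2 or either DMSO array, and that of myo-3 without RIF replicate 1 (-0.98). No germ line marker passed the threshold, and 5 of 7 were lower on both RIF arrays, against 15.7% of all probe sets (median -0.52). No neuron, intestine or embryo and larva marker passed it either. The differences were positive for 7 of 7 neuron markers (median 0.67) and for 5 of 7 intestine markers (median 0.24). They were negative for 8 of 11 embryo and larva markers (median -0.12). Of the 11 embryo and larva markers, 5 had a mean above the foreign controls. The part of all these marker shifts in the furrow collagen differences was not tested.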

How the data were processed

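The authors deposited a log2 value per probe set and array. RMA and Affymetrix Expression Console stand in the submitters' processing notes, and GeneSpring GX in the paper's methods. The table held 22625 probe sets, from which 77 controls were dropped. The other 22548 were compared as deposited, with no filter on level, by limma's moderated test (limma 3.58.1 under R 4.3.3, no trend, two-sided), and p-values were adjusted over all of them by Benjamini-Hochberg. The prior had 2.11 degrees of freedom. In a list, a gene stands for its probe set of highest mean level that names no other gene. The procedure was tested on simulated data. The number of arrays, 2 per group, limits the precision, and p-values measure only the spread between these arrays.

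The members and lists were chosen with earlier results of these data known. The text names every member, up to 4 genes past the threshold per list, 10 further genes fixed by name, and the 5 genes nearest in profile. T14B4.19 was named for its overlap with dpy-10. The alternatives were each array left out in turn, a replicate block, 3 other scalings, an intensity trend, the methods' test, a filter on level, a 1.5-fold threshold and the mean over a gene's probe sets. Replicate numbers do not pair the arrays by the labels. No sequence was analysed here.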

Additional observations from a re-analysis of the deposited data

How the results depend on the processing

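No furrow collagen probe set passed the study's threshold as reported (0 of 6). The count was 1, dpy-7 each time, with quantile normalization, median centring or ribosomal protein centring of the arrays, and 2, dpy-3 and dpy-7, with a 1.5-fold threshold, which 3.41% of all probe sets passed as lower. With single arrays left out it ranged from 0 to 1 (dpy-7, -1.32, without RIF replicate 1), and the median difference of the genes ranged from -0.64 (without RIF replicate 1) to -0.40. The difference of dpy-2 by probe set 173355_s_at, 0.02 as reported, was -0.052 after quantile normalization, -0.041 with median centring and -0.14 with ribosomal centring, and ranged from -0.22 to 0.25 with single arrays left out. The differences of the 5 other probe sets were negative under every alternative run, and in each of the 3 other scalings the 5 genes kept both RIF arrays below both DMSO arrays, as did 19.5%, 22.8% and 34.2% of all probe sets. Ribosomal centring moved the median of all probe sets from 0.03 to -0.13.

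With the replicate number as a replicate block the count was 0, and the p of dpy-7 and dpy-3 was 0.0685 and 0.0887 in limma. The deviations of equally numbered arrays correlated at 0.10, and the labels tie no numbers together.

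Over the whole array, the 257 probe sets that rose became 464 when DMSO replicate 1 was left out, 422 when DMSO replicate 2 was and 399 when RIF replicate 2 was, 108 with the methods' test, 680 with a 1.5-fold threshold and 173 with ribosomal centring, and the 346 that fell became 735, 130, 768 and 517 without DMSO replicate 2, with the methods' test, with a 1.5-fold threshold and with ribosomal centring. The methods' test ended the calls of dpy-13, dpy-4, sqt-3, col-19, phy-2, gst-10, unc-54 and myo-3. The cause of these changes was not tested. Readings close to the foreign controls limit what can be said of dpy-7, the second dpy-2 probe set, dpy-5, gst-10 and myo-3.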
